A study of Mus musculus with 6 samples.

Results

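Cytosolic ribosomal protein genes were examined in the cortex of C57BL/6 mice aged 14 days, where RNA-seq had been run on the primary somatosensory area. Genes were taken by symbol, as protein-coding genes named Rpl or Rps plus a digit, together with Rpsa, Rplp0, Rplp1 and Rplp2, and without pseudogenes and the Rps6k kinases. This gave 86 of the 47794 genes in the deposited table, 52 named for the large and 34 for the small subunit. Of these, 77 encode core subunits of the ribosome (46 large, 31 small) and 8 are paralogs of a core gene. The remaining gene, Rps19bp1, encodes a protein that binds Rps19 and is no ribosomal subunit. The control group (Ctrl, 3 libraries) carried the floxed allele β-cat lox(ex3), in which exon 3 of Ctnnb1 is flanked by loxP sites. The overexpression group (Ovp, 3 libraries) carried the same allele and Nex-Cre, which deletes exon 3 where it recombines. The group name does not stand for a higher Ctnnb1 mRNA level. Nex-Cre is expressed from the Neurod6 locus and recombines in excitatory neurons of the forebrain, so interneurons, glia and blood vessels of the same tissue keep the floxed allele intact. The sources used here do not say whether the allele was on 1 or both chromosomes, or whether each library came from a separate animal. The limma p-values below therefore reflect how far these libraries spread, and part of that spread may be technical. The kind of test behind the authors' p-values is not given in the sources used here, so what spread they measure is not known.

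Each cytosolic ribosome joins a large subunit, which holds the peptidyl transferase centre, to a small subunit, which decodes the mRNA. The mRNAs of nearly all their proteins begin with a C followed by a run of pyrimidines, the terminal oligopyrimidine (TOP) motif. Through this motif, mTOR and the RNA-binding protein Larp1 set how strongly these mRNAs are translated. In neurons the same proteins also serve local translation in dendrites and axons. β-Catenin, the product of Ctnnb1, carries Wnt signals to TCF/LEF factors, and Myc, a known Wnt target in other tissues, is a known activator of ribosome production.

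RefSeq (GRCm38.p6) promoter windows, from 250 bases before to 50 after an annotated start, matched 66 of the 86 genes, 57 of them core genes. The start sequences of 8 genes are shown because their library values are described below. Each runs from 12 bases before the annotated start to 15 bases from it, on the strand of the gene, 5′ to 3′. Capitals mark a C within 5 bases of the start and the unbroken pyrimidine run it opens, where at least 4 further pyrimidines follow. Rpl35 (chr2:39005117-39005143, minus strand), Rpl38 (chr11:114668568-114668594, plus strand), Rps27 (chr3:90213634-90213660, minus strand) and Rplp2 (chr7:141447639-141447665, plus strand) have such a run. Rpl37 (chr15:5116601-5116627, plus strand), Rps28 (chr17:33824548-33824574, minus strand), Rps13 (chr7:116334176-116334202, minus strand) and the paralog Rpl7l1 (chr17:46782642-46782668, minus strand) have none at the start that RefSeq gives.
Rpl35: ccccgccctttcCTCTTTCTCTCgaac
Rpl38: ggaagcctcgttCTTTCCCCgttctct
Rps27: tccgctttcgctCCTTTCCggcggtga
Rplp2: gtcagcgtcttcCTTTCgccgccggac
Rpl37: ttcctgggcggaagcttatccacagga
Rps28: accgcgtgcggtctcgcgagagcgaaa
Rps13: agcaaacgtcggtgagtggcgtcactt
Rpl7l1: aggctgcgcaagcgcagtagctgaagc

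A TOP match by this rule stood in the windows of 27 of 57 core genes (47.4%), against 3767 of 17492 protein-coding genes with a window (21.5%). The share was 16 of 34 for the large subunit, 11 of 23 for the small subunit and 17 of 69 for mitochondrial ribosomal protein genes. Other motifs were searched on both strands, and none of these contains another. The ETS motif CCGGAAG stood in 24 core windows (42.1%, against 12.9% of all), the YY1 motif AAGATGG in 9 (15.8%, against 7.18%) and the SP1 motif GGGCGG in 35 (61.4%, against 49.2%). The Myc E-box CACGTG stood in 6 core windows (10.5%, against 8.91%). The TCF/LEF motif ATCAAAG stood in 0 of the 57 core windows, against 654 of all 17492 (3.74%). These matches describe the letters in a short window around the start that RefSeq gives and say nothing about binding.

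The deposited table gives 1 value per gene and group, the group mean of read counts scaled between libraries, with no spread. These means summed to 19016749 in control and 18602579 in overexpression cortex. Values of single libraries were recovered where a group mean can be written as whole reads of 3 libraries in exactly 1 way. They are called A, B and C within each group and cannot be tied to replicate numbers. In the authors' deposited table Ctnnb1 had a mean of 7574 in control and 6391 in overexpression cortex (p = 0.0304, adjusted p = 1). A value over the whole gene includes the exons outside exon 3 and does not check the genotype. All 4 markers of cortical excitatory neurons were present, the vesicular glutamate transporter gene Slc17a7 at 31689 and 30449. In bulk tissue, fewer cells of a type and less RNA per cell cannot be told apart.

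Ribosomal protein mRNAs were abundant and spanned a wide range of levels. Together the 86 genes held 0.788% of the summed control means and 0.772% of the summed overexpression means. Divided by coding length, the median core gene stood at 3369 scaled reads per kilobase for the large and 3348 for the small subunit in control cortex. The middle of the distribution was narrow, with quartiles of 2692 and 4395 for the large and 2657 and 4185 for the small subunit. Coding lengths leave out untranslated regions, so very short genes stand high on this scale.

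In the large subunit the highest level per coding kilobase belonged to Rpl41 (ENSMUSG00000093674), which encodes a very short basic peptide, at 49075 in control and 45987 in overexpression cortex. Its coding sequence has 75 bases. Next came Rpl21 at 8178 and 7988, then Rplp1, a protein of the acidic stalk that recruits elongation factors, at 7157 and 6892, and Rpl29 at 6033 and 5726. In the small subunit Rps26, which lies near the mRNA exit, led at 8240 and 7971. Rpsa followed at 7826 and 7458, Rps24 at 7263 and 7116, and Rps14 at 7202 and 6580. Rpsa also had the highest group means of all members, 6926 and 6600, before division by length. The order depends on the length used. Per kilobase of whole transcript Rpl41 still ranked 1 among the core genes, but Rpl21 ranked 33 and Rps24 ranked 42. On that scale Rps15 led the small subunit, at 5739 in control and 5387 in overexpression cortex.

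A few large-subunit genes stood far below the others. Rpl24 (ENSMUSG00000098274) had 4.51 and 11.1 scaled reads per coding kilobase in control and overexpression cortex, Rpl12 had 217 and 212, Rpl35 had 236 and 244, and Rpl23a had 317 and 322. The next gene up, Rpl19, stood at 1334 and 1205. The lowest small-subunit gene, Rps13, stood at 1367 and 1352, so no core small-subunit gene reached so low. Many ribosomal protein genes have near-identical processed pseudogenes. How reads that match several copies were counted is not given in the sources used here, so the levels of these 4 genes are uncertain.

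**Figure D1:**
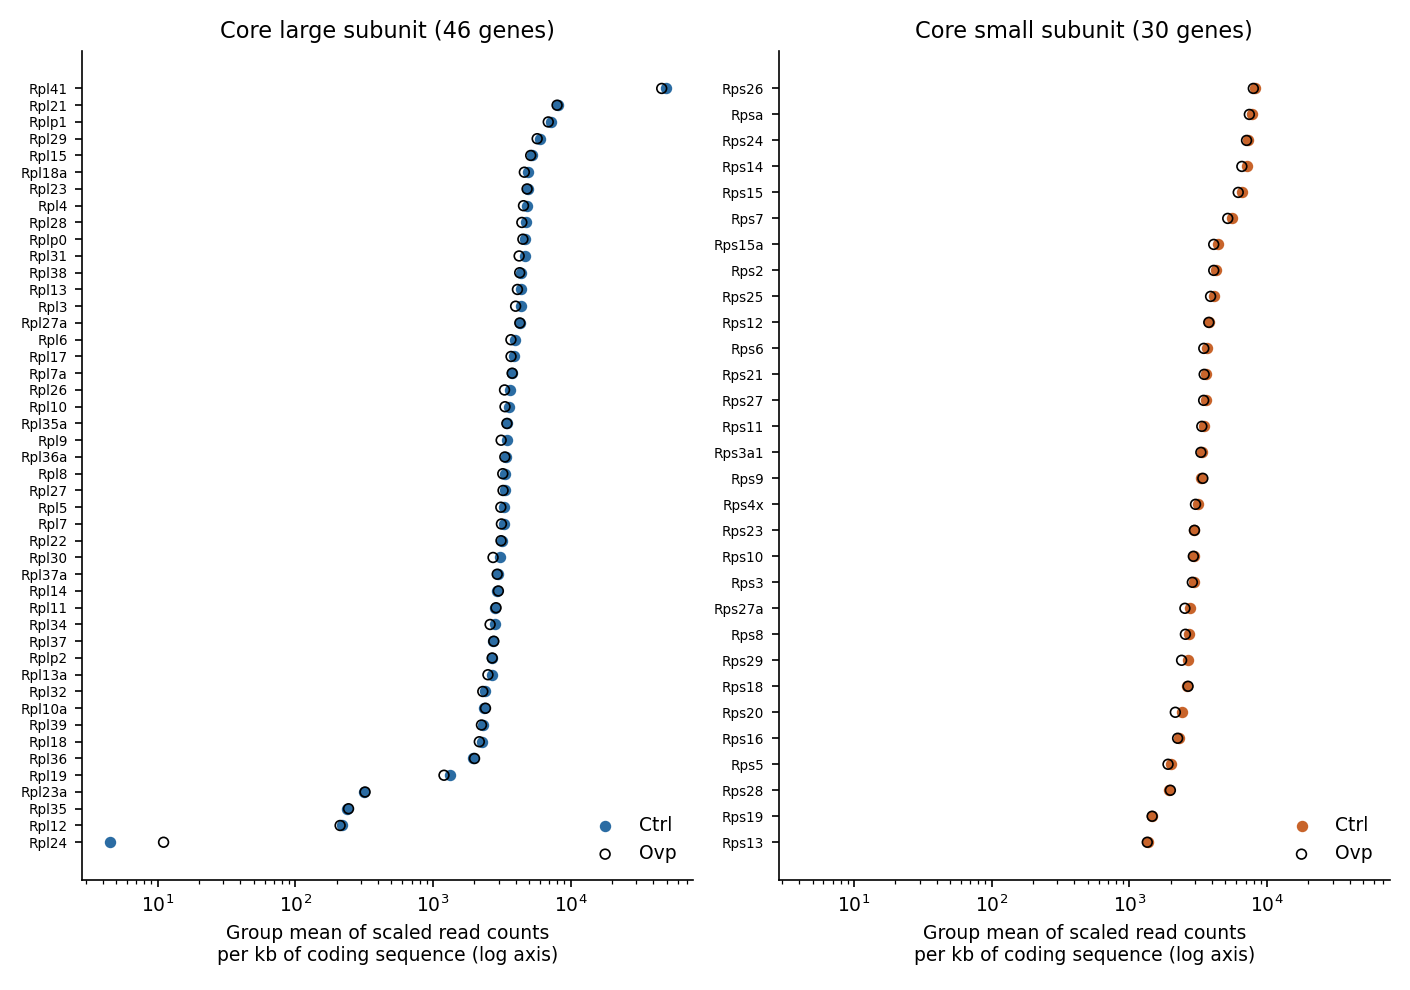
Group means of scaled read counts per kilobase of coding sequence (log axis) for the 46 core large-subunit genes and 30 of the 31 core small-subunit genes, ordered by the control level; filled points are Ctrl and open points are Ovp. Open and filled points lie close together for nearly every gene, Rpl41 stands highest at 49075, and Rpl24, Rpl12, Rpl35 and Rpl23a stand below the others.

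No ribosomal protein gene passed the authors' test between control and overexpression cortex. By the authors' deposited table, 0 of the 86 genes had an adjusted p under 0.05, against 0 of 30152 genes tested (0%). At an unadjusted p under 0.05 the authors' deposited table again held 0 members, against 161 of all tested genes (0.534%). The lowest p of a member in the authors' deposited table was 0.178, for Rpl30. The median p there was 0.715 over the members and 0.725 over all genes, so high values are not particular to the members. Of the 82 members with a mean of at least 10 over both groups, 76 (92.7%) differed between the groups by less than 1.1-fold, and the share was 89.5% among the 6786 genes with a mean of at least 500.

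The small differences lay mostly on 1 side. The overexpression mean was below the control mean for 66 of the 82 genes and above it for 16, and it was below for 53.2% of all 17095 genes with a mean of at least 10. Among the 70 core genes with a mean of at least 500 it was below for 59, against 64.6% of all genes at that level. Among other coding genes at that level with transcripts of up to 600 bases it was below for 18 of 24 (75%). Their median log2 ratio was -0.07, beside -0.05 for the 70 core genes. For transcripts of over 600 and up to 1000 bases the overexpression mean was below for 76 of 129 (58.9%, median -0.02). In the longer classes the share was 60.8% to 68.7%. Median transcript length was 910 bases for the 46 core large-subunit genes and 860 for the 31 core small-subunit genes. The median log2 ratio of the overexpression to the control mean was -0.05 for the 82 genes, -0.01 for all genes with a mean of at least 10 and -0.03 for those with a mean of at least 500. The summed means of all genes themselves differed by a log2 ratio of -0.03. When each mean was divided by its column total, 55 of the 82 genes stood lower and 27 higher, with a median of -0.02. Markers of other cells of the cortex summed to 106689 in control and 114736 in overexpression cortex for 4 oligodendrocyte genes, and to 9274 and 8555 for 3 interneuron genes. The 4 excitatory neuron markers summed to 39288 and 37682, and the part of cell makeup in the values of the ribosomal protein genes was not tested.

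The large and the small subunit lay close together in these differences. The overexpression mean was lower for 35 of 45 core large-subunit genes and for 27 of 31 core small-subunit genes, and both medians were -0.05. Log2 ratios of core genes ran from -0.16 to 0.05 in the large and from -0.16 to 0.04 in the small subunit. So did core genes with and without a TOP match at the start. The overexpression mean was lower for 19 of 27 core genes with a match (median -0.04) and for 25 of 29 without (median -0.04).

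At the low end the log2 ratios of core genes reached -0.16. Rpl30 (ENSMUSG00000058600), a large-subunit protein, had means of 1057 in control and 944 in overexpression cortex, a log2 ratio of -0.16. Rpl31, beside the exit tunnel of the large subunit, had 1761 and 1588 (-0.15). Rpl19 had 784 and 708 (-0.15). All 3 are proteins of the large subunit. In the small subunit Rps29 had 451 and 403 (-0.16), and Rps20 had 857 and 772 (-0.15). Rps14 had 3262 and 2981 (-0.13), and Rps27a, made as a fusion to ubiquitin, had 1288 and 1188 (-0.12). None of these 7 genes passed the test, and in the authors' deposited table their p ran from 0.178 for Rpl30 to 0.546 for Rps29.

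At the other end the overexpression means were higher by less still. Rpl35 had 87.2 in control and 90.0 in overexpression cortex (0.05), Rpl36 had 618 and 632 (0.03), Rpl14 had 1904 and 1947 (0.03) and Rpl10a had 1535 and 1562 (0.03). In the small subunit Rps28 had 401 and 412 (0.04), Rps9 had 1949 and 1993 (0.03) and Rps18 had 1198 and 1220 (0.03). In the authors' deposited table the p of these 7 genes ran from 0.816 for Rps9 to 0.992 for Rpl35. Rpl5 (2941 and 2777) and Rpl11 (1522 and 1536), which together with the 5S RNA bind the p53 ligase Mdm2 when ribosome assembly is disturbed, lay to either side of equality. Rps6 (2763 and 2600), the subunit phosphorylated by the S6 kinases, had a p of 0.439 in the authors' deposited table.

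**Figure D2:**
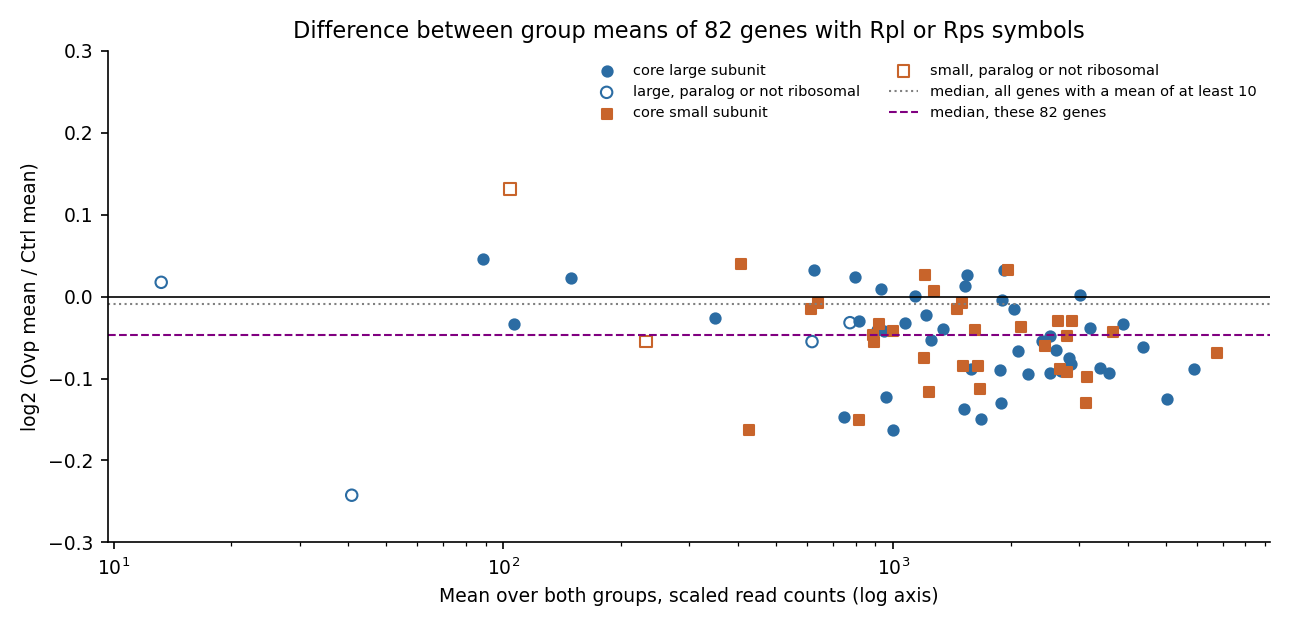
Log2 ratio of the overexpression to the control mean against the mean over both groups (log axis) for 82 genes, with circles for the large and squares for the small subunit and open symbols for paralogs and Rps19bp1. Most points lie just below 0, around the median of -0.05, and only the paralogs Rpl22l1 and Rps27l lie outside the range of the core genes.

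The paralogs were mostly low. Rpl7l1 had means of 783 in control and 766 in overexpression cortex, and Rpl36al, a retrocopy of Rpl36a, had 630 and 607. Rps27l stood at 99.3 and 109 (log2 ratio 0.13) and Rpl22l1 at 44.2 and 37.4 (-0.24). The authors' deposited table gives them p-values of 0.529 and 0.377. Rpl3l, known from striated muscle, stood at 13.2 and 13.3. Rps27rt stood at 2.11 and 2.31. Rpl10l, known from male germ cells, was listed at 0 in both groups, and Rpl39l, also known from the testis, had 0 reads in the 3 control libraries and 1, 2 and 1 reads in overexpression libraries A, B and C. Rps19bp1 had 237 and 228.

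Library values were recovered in the control group for 20 core genes with a mean of at least 10, all with means up to 1000, and in both groups for 16 of them. In the control group library B held the lowest value for 20 of the 20 genes, 12 of the large and 8 of the small subunit. Among all 12687 recovered genes B was the lowest for 31.5%. The value in B was 41.9% to 90.6% of the mean of A and C, with a median of 74.2%. This pattern was chosen for description after the values were seen.

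Rpl35 (ENSMUSG00000062997), a large-subunit protein near the exit tunnel, had 105 in control library A, 45.4 in B and 111 in C. These values rest on 103, 42 and 101 reads, and the 95% Poisson interval of B, 32.7 to 61.3, lies below that of A, 85.6 to 127. Rpl23a (ENSMUSG00000058546), its neighbour at the exit tunnel, had 176, 77.8 and 191. The share of B was lowest for these genes, and A and C lay close together. Rps29, a small zinc-binding subunit, had 523, 296 and 535. Rpl38, known for its part in patterning the mouse axial skeleton, had 1027, 665 and 1079. Rpl39, a very small protein of the exit tunnel, had 403, 259 and 391. In each of these genes B stood apart from A and C. Rps21 had 1037, 681 and 984, Rpl37 had 924, 608 and 847, and Rpl19 had 846, 582 and 924. The gap was smallest for Rpl34, at 963, 931 and 1093. All 9 of these core genes with a TOP match in their window, the 5 without and the 6 with no window had B lowest, with median shares of 67.4%, 72.5% and 77.8%.

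**Figure D3:**
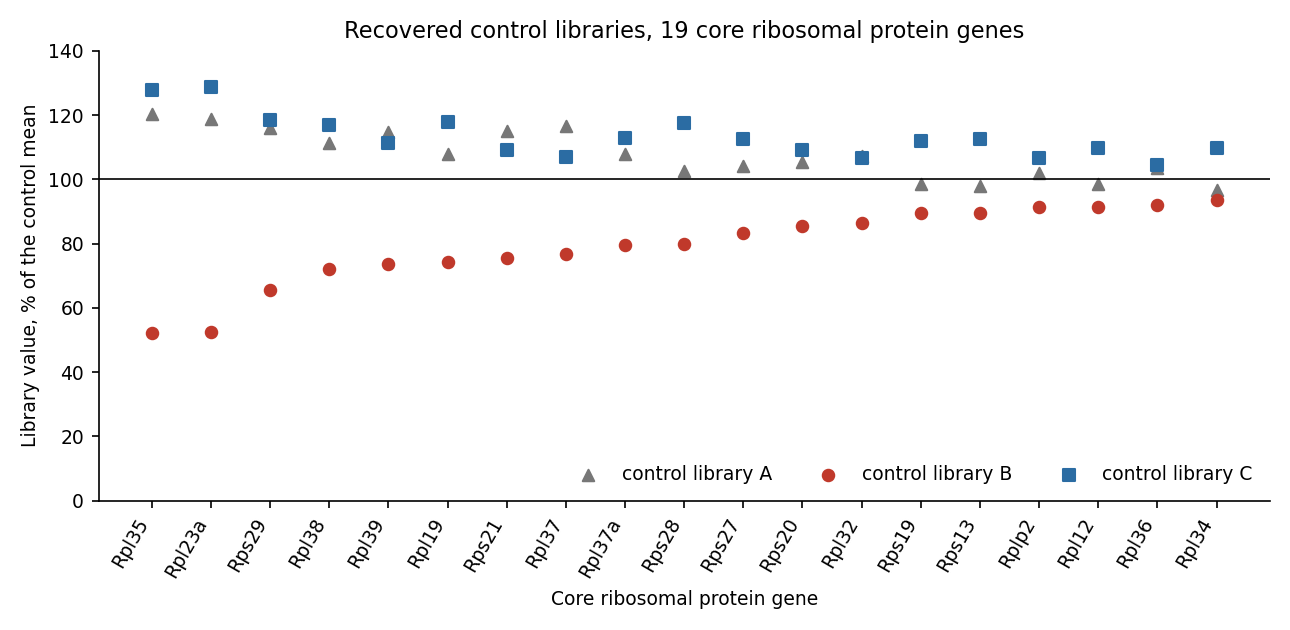
Values of the 3 recovered control libraries as a percentage of the control mean for 19 of the 20 core ribosomal protein genes, ordered by the value of library B relative to A and C. Library B (circles) lies below A and C for every gene shown, by most for Rpl35 and Rpl23a.

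Transcript length moved with this pattern, over genes that encode no ribosomal protein as well. The 20 core genes recovered in the control group had a median transcript length of 600.5 bases. Over all core genes the median was 910 for the 46 of the large and 860 for the 31 of the small subunit. Among other coding genes with transcripts of up to 600 bases, B was the lowest control library for 31 of 39, and the median log2 ratio of B to the mean of A and C was -0.42, beside -0.43 for the 20 core genes. That median was -0.15 for transcripts from 600 to 1000 bases, -0.06 from 1000 to 2000, 0.00 from 2000 to 4000 and 0.07 above 4000 bases. B was also the lowest for 12 of 12 recovered translation factors. Their median transcript length was 1956 bases and their median log2 ratio of B to A and C was -0.18. Among other coding genes from 1000 to 2000 bases, B was the lowest for 46.8%. B was the lowest for 44 of 77 mitochondrial ribosomal protein genes (median length 1316 bases) and 16 of 35 ribosome biogenesis factors (2597 bases). Among all recovered genes the share was 31.5%. Among genes that control ribosomal protein mRNAs, with the Myc family, B was the lowest for 1 of 10 and the highest for 6. Of the members that are no core subunits, Rpl7l1 (775, 797 and 776 in A, B and C) and Rps19bp1 (228, 271 and 211) did not have B lowest.

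The summed choroid plexus markers were highest in control library B, mostly through Ttr. All 4 listed genes were present, and they summed to 175 in A, 819 in B and 126 in C, and to 190 to 216 in the overexpression libraries. Ttr, the transthyretin gene that defines this tissue, had 76.4, 713 and 79.4 in the control libraries. Kl had 88.6, 73.4 and 28.7 and Folr1 had 8.15, 5.40 and 2.21, so these markers were highest in A, and Clic6 had 2.04, 27.0 and 15.4. The control libraries also differed in the 6 listed markers of other brain regions, which summed to 1739, 1473 and 1032 in A, B and C. Prox1 was highest in A (1274, 886 and 343) and Drd2 in C (51.9, 88.6 and 124). The part of choroid plexus tissue, other brain regions or transcript length in the values of the ribosomal protein genes was not tested.

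In the overexpression group library A was the lowest for 11 of the 16 core genes recovered there, against 33.6% of all recovered genes. The differences were smaller than in control library B, and the median log2 deviation of A from the group mean was -0.12. Overexpression library B had higher values for short transcripts, with a median log2 ratio to A and C of 0.21 for other coding genes of up to 600 bases and -0.10 above 4000 bases. For the 16 core genes this ratio was 0.07.

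**Figure D4:**
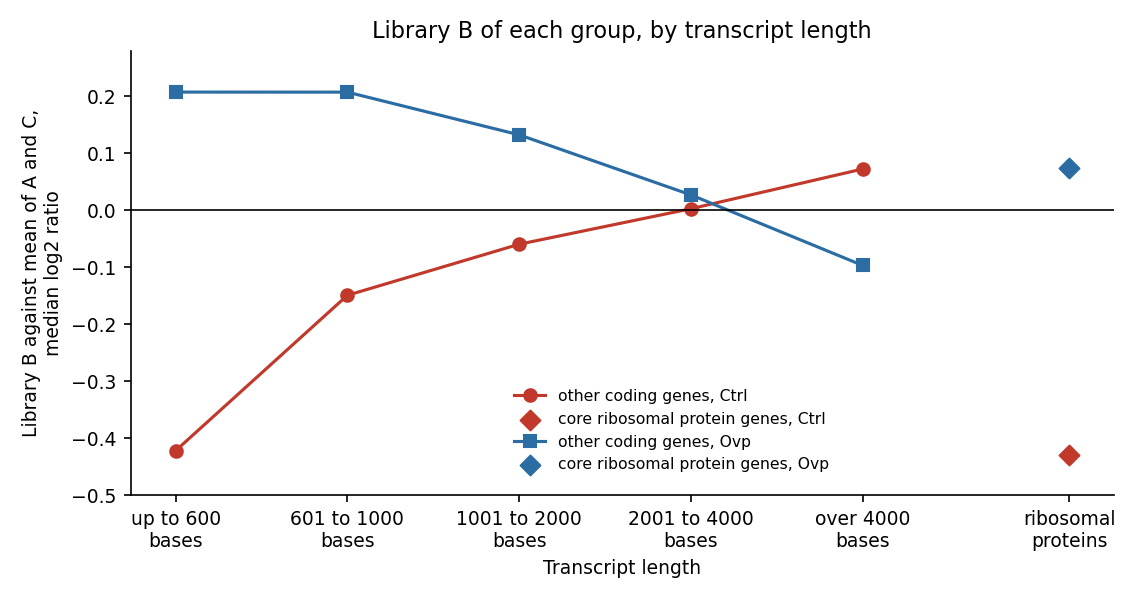
Median log2 ratio of library B to the mean of libraries A and C in each group, for other protein-coding genes by transcript length (lines) and for core ribosomal protein genes (diamonds). In the control group the ratio climbs with length from -0.42 to 0.07 and the ribosomal protein genes sit at -0.43, and in the overexpression group it runs the other way.

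With library values in hand, the groups overlapped for each of the 22 members recovered in both with a mean of at least 10, where 6.88% of 12186 genes did not overlap. Summed over the 16 core genes, control libraries A, B and C held 10261, 7993 and 10632, a mean of 9629 ± 1428 (SD, n = 3). The overexpression libraries held 8769, 9684 and 9823, a mean of 9425 ± 572 (SD, n = 3). The overexpression sums all lay between control B and control A, and the control mean without B was 10447. For the 9 large-subunit genes the means were 4818 ± 718 and 4803 ± 344 (SD, n = 3 each), and for the 7 small-subunit genes they were 4811 ± 720 and 4623 ± 319 (SD, n = 3 each). For 9 of the 16 core genes the overexpression values came from a search limited to values close to their mean. The SDs of these sums therefore cannot be compared between the groups. For the 7 core genes recovered without that search the means were 2165 ± 455 and 2118 ± 161 (SD, n = 3 each). Overexpression means above 100 were still searched only within 2-fold, and control means without such a limit. These SDs therefore rest on unlike searches as well.

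Rpl35 had 60.3, 96.9 and 113 in overexpression libraries A, B and C, a range that overlapped the control values of 45.4 to 111. Its log2 fold change was 0.10 ± 0.33 (SE), with an adjusted p of 0.9996 by limma. Rpl23a had 109, 178 and 165, and its fold change was 0.10 ± 0.30 (SE, limma adjusted p = 0.9996). In both genes the lowest value of all 6 libraries was control B and the next was overexpression A. For Rps28 the control libraries had 411, 320 and 471, and the overexpression libraries 391, 385 and 459. Rpl39 had 374, 346 and 315 in the overexpression libraries, all between control B and the other control values. Rps29 had 399, 358 and 453, likewise between control B and the others, with a fold change of -0.12 ± 0.19 (SE, limma adjusted p = 0.9996). Rps13, which sits at the junction of the subunits, had 606, 555 and 697 in the control libraries and 536, 635 and 666 in the overexpression libraries. Rpl12, a protein at the base of the stalk, had 106, 98.3 and 118 in the control libraries and 82.3, 129 and 103 in the overexpression libraries. For these genes neither group stood wholly above the other.

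The other recovered core genes rest on a narrower search of the overexpression means, which was added after the data were seen and takes library values to lie close to their mean. Rps20 had 902, 732 and 936 in the control libraries and 688, 799 and 829 in the overexpression libraries, and had the lowest unadjusted p of the 22 genes by limma (adjusted p = 0.9996). Rpl37a had 892, 657 and 932 in the control libraries and 812, 807 and 809 in the overexpression libraries. Rpl37 had 772, 823 and 823, and Rps27 had 892, 791 and 942 in overexpression libraries. The control values of these genes spread more widely than their overexpression values. The narrower search admits only overexpression values close to their mean, and the control search had no such limit. The tighter overexpression spread therefore cannot be read as a difference between the groups. Rplp2 spread more in overexpression cortex, at 759, 1083 and 950 beside 943, 846 and 986. Rps19 had 590, 660 and 664, Rpl36 had 565, 688 and 644, and Rpl32 had 900, 965 and 936 in overexpression libraries. Library A was the lowest in each of these last 3 genes.

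**Figure D5:**
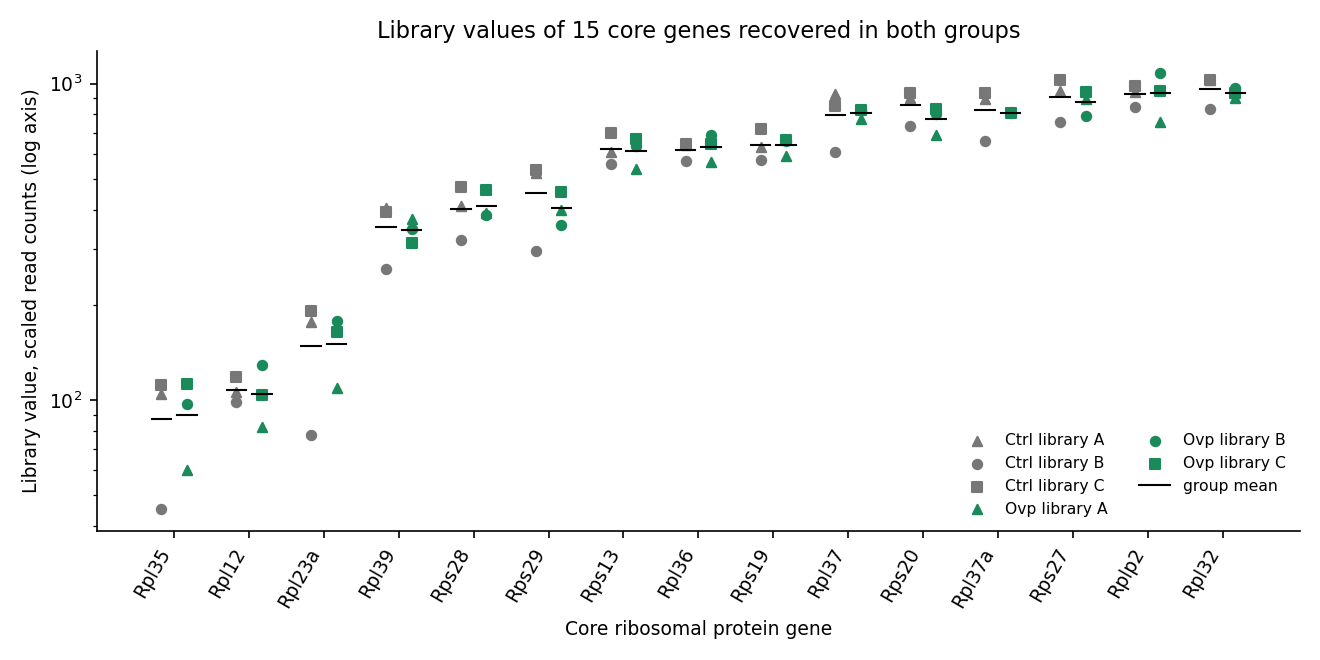
Library values (log axis, scaled read counts) of 15 of the 16 core genes recovered in both groups, with Ctrl in grey and Ovp in green, 1 symbol per library and a bar at the group mean. The groups overlap for every gene shown, and control library B (grey circles) is the lowest control value throughout.

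In the limma fit over recovered libraries 0 of 11 members passed an adjusted p of 0.05, against 0 of 10207 genes (0%), and 0 had an unadjusted p under 0.05, against 212 genes (2.08%). Over the 22 members of the wider recovery the counts were again 0 and 0, against 0% and 2% of 12186 genes. For the core genes the 95% interval of a fold change reached 0.20 to 0.71 to either side on the log2 scale. Changes below about that size were not detectable. These intervals are not adjusted for the number of genes, so a call by adjusted p needs a larger change. They include genes of the narrower search, which holds overexpression values close to their mean, so the lower end may be too small. Of the 22 members 15 had a negative fold change, against 47.6% of all genes in that fit, with a median of -0.01. Without control library B the count was 20, against 47.4%, and the median was -0.14. Control library B was the lowest for every core gene in this fit, so leaving it out could only lower their fold changes. Without control library C the count was 5, with a median of 0.05. In the fit of 11 members without control library B, Rps29 had a log2 fold change of -0.40 (limma adjusted p = 0.9998). Its unadjusted p was under 0.05, as it was for 2.29% of all genes in that fit. Without overexpression library A 9 of the 22 were lower, with a median of 0.05. The median was above 0 without control library A, control library C or overexpression library A, and below 0 without each of the other libraries.

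Fau encodes a small-subunit protein as a fusion to a ubiquitin-like sequence and falls outside the symbol rule. It had means of 1620 in control and 1580 in overexpression cortex.

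Other genes of the translation machinery were read beside the ribosomal proteins. In each of the lists described here, 0 members had an authors' p under 0.05, against 161 of all 30152 genes tested (0.534%). With so low a share over all genes, a count of 0 does not set these lists apart. Translation initiation, elongation and release factors had lower overexpression means in 31 of 35 genes, with a median log2 ratio of -0.05. Eef1a2, the neuronal form of elongation factor 1A, had 17637 in control and 16257 in overexpression cortex, and Eif4g2 had 14985 and 14399. Other genes with TOP mRNAs had lower means in 14 of 19, with a median of -0.03. Among them Eef1a1 had 36683 and 34995, and Eef2, which moves the ribosome along the mRNA, had 21883 and 20827. Log2 ratios ran from -0.14 to 0.05 over the translation factors and from -0.12 to 0.13 over the other TOP genes, beside -0.16 to 0.05 over the core ribosomal protein genes.

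Genes that build ribosomes were more evenly split, and their levels were lower. Median control means were 466 for biogenesis factors and 270 for RNA polymerase I genes, beside 1634 for core ribosomal protein genes and 1979 for translation factors. Overexpression means were lower in 53.2% of all genes with a mean of at least 10 and 64.6% of those with at least 500. Ribosome biogenesis factors had lower overexpression means in 18 of 41 genes (median 0.01). Nucleolin, encoded by Ncl, had 6248 in control and 6023 in overexpression cortex, and Nol6 had 2651 and 2531. The RNA polymerase I machinery, which makes the large ribosomal RNA precursor, had lower means in 7 of 15 genes (median 0.00). Its members Ubtf and Rrn3 had 2753 and 2715, and 1158 and 1119. Genes that control ribosomal protein mRNAs, with the Myc family, had lower means in 9 of 19 (median 0.00). Larp1, which binds the TOP motif, had 3653 and 3786, and Tsc2, an inhibitor of mTOR signalling, had 2630 and 2532. Mitochondrial ribosomal protein genes, which serve a separate ribosome, had lower means in 49 of 77 (median -0.03), with Mrpl3 at 927 and 925 and Mrps5 at 899 and 884. Whether any of these lists differed from the ribosomal protein genes was not tested.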

How the data were processed

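The authors deposited 1 table for the 6 libraries. It gives a signal value per gene and group, which the authors deposited as a mean of read counts scaled between libraries (from the values). The table, per the file headers, also holds the p-value of the authors' test, raw and adjusted. The submitters' processing notes name Bowtie2 2.0.6 and TopHat2 2.0.9. Build, annotation, counter, strand setting and the kind of test: not given in the sources used here. Symbols were taken from tables that pair Ensembl IDs with names, and coding and transcript lengths from the best-ranked APPRIS principal transcript in GENCODE, which for some genes (Rps15a, Rps20) is much longer than their usual mRNA.

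Log2 ratios of the group means were recomputed, with no pseudocount, where the mean over both groups was at least 10. Library values were recovered by matching each mean, within its written digits, to whole reads of 3 libraries. All combinations were searched for control means up to 1000 (99.98% of 23575 had exactly 1) and overexpression means up to 100 (100% of 16824). Combinations within 2-fold were searched for overexpression means from 100 to 1000 (64.7% of 7379 had exactly 1). A search within 1.35-fold for means from 450 to 3000 was added after seeing the data (37.6% of 5435 had exactly 1). It gives 9 of the 16 core genes recovered in both groups, and could misassign a gene whose libraries differ by more. The library scaling factors ran from 0.907 to 0.982 in control and 0.966 to 1.23 in overexpression libraries. Log2(value + 1) of all recovered genes was tested with limma 3.58.1 (R 4.3.3, trended variance, Benjamini-Hochberg adjustment), which understates the fold changes of low genes. Recovery and fit were tested on simulated data, with the same dispersion between libraries set for every gene. Control values of the recovered core genes had coefficients of variation from 7.04% to 41.7%. How the limited searches perform on genes that spread more than the simulated ones was not tested. Poisson intervals cover counting error only.

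The members and lists were chosen with earlier results of these data known. Named genes were, per subunit, the 4 highest per coding kilobase and the 4 highest and 4 lowest log2 ratios, with all paralogs, all genes recovered in both groups, Fau, and the 2 highest members of each other list. Rpl5, Rpl11, Rps6 and the control-library examples outside this rule were chosen after their values were seen. Some genes that the rule names are not reported here, though counts and sums include them.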

Additional observations from a re-analysis of the deposited data

How the results depend on the processing

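Of the alternatives to the main settings, 76 kept each value in its direction or within its spread and 4 moved it. The 76 include counts that stayed at 0, and medians of the limma fold change that changed sign when a library was left out. Dividing group means by column totals raised the number of members higher in overexpression cortex from 16 to 27. The number of members with an unadjusted limma p under 0.05 was 0 of 11 in the main fit, against 212 of 10207 genes. With no filter on low values the number was 1 of 14 (Rpl39l, at 0 to 2 reads per library), against 743 of 23264 genes. With each library left out in turn it ranged from 0 to 1, and from 0 to 2 with the narrower search of overexpression means. It was above 0 only without control library B (Rps29, then Rps20 and Rps29). The number with an adjusted p under 0.05 was 0 in all settings run. The median limma log2 fold change of the 11 recovered members was -0.00 and ran from -0.15 without control library B to 0.09 without control library C. The cause was not tested. No paired analysis was possible because the recovered libraries carry no replicate numbers. No control library values were recovered for means above 1000, which most ribosomal protein genes have.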

Other observations

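Ribosomal protein pseudogenes took few reads in this table. Of 273 pseudogene rows with ribosomal protein symbols, 145 had no reads in either group and 14 reached a mean of 10. They summed to 1466 in control and 1376 in overexpression cortex, beside 149835 and 143594 for the 86 protein-coding members. Rps2-ps10 alone had 934 and 864, with a p of 0.943 in the authors' deposited table. Of 6 further symbols that follow the naming rule but are annotated as pseudogenes, Rps4l had 228 and 218, and the other 5 stood below 5 in both groups.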
